A study of Mus musculus with 20 samples.

Results

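Expression of 8 genes for secreted matrix proteins was followed in myeloid cells sorted from mouse tumours. They were Thbs1 (thrombospondin 1), Vcan (versican), Fn1 (fibronectin), Spp1 (osteopontin), Tgfbi, Ecm1, Fgl2 and Lgals3 (galectin-3), 8 of the 23090 genes in the count tables. The genes were matched by symbol through their Entrez gene IDs. Thbs1 and Vcan had been noted for higher counts with the inhibitor in granulocytic cells, so the 8 genes are described without p-values in that contrast. Lgals3 encodes a lectin that binds sugars on matrix glycoproteins and is not itself a structural component of the matrix.

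Cells came from subcutaneous tumours of female SCID.beige mice aged 6 to 8 weeks, which lack T cells, B cells and working NK cells. The labels name 2 tumour lines, MDA.MB.231-X1.1 (from a human triple-negative breast cancer line) and CT26 (a mouse colon carcinoma line), and tie no library to either. Differences between the lines therefore cannot be told apart from the spread between libraries or from the differences between groups. From tumours of 150 to 200 mm3 on average, mice were gavaged BID for 7 days with GNE-781 at 25 mg/kg or with the vehicle, MCT. GNE-781 blocks the bromodomains of the paralogous histone acetyltransferases CBP and EP300, and is called CBPi-781 in the labels and CBPi here. After enzymatic digestion of the tumours, the 2 populations sorted both expressed CD45, CD11b and Ly6C without F4/80: monocytic myeloid-derived suppressor cells without Ly6G (mMDSC) and granulocytic ones with Ly6G (gMDSC). Each of the 4 groups held 5 libraries, numbered 1 to 5 with vehicle and 6 to 10 with CBPi, and nothing in the labels says which came from 1 mouse or from separate mice, so p-values measure the spread between these libraries, part of which may be technical.

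Myeloid cells in tumours secrete proteins that line the matrix and tell neighbouring cells how to attach and move. Fibronectin assembles into fibrils that cells grip through integrins, and versican is a large chondroitin sulfate proteoglycan that binds hyaluronan. Thrombospondin 1, osteopontin, TGFBI and ECM1 are matricellular proteins, which sit in the matrix mainly to signal: thrombospondin 1 binds CD36 and CD47 and can activate latent TGF-beta, osteopontin binds CD44 and integrins, and TGFBI is induced by TGF-beta. FGL2, a fibrinogen-like protein, exists as a membrane prothrombinase and as a secreted form that binds an inhibitory Fc receptor, and galectin-3 cross-links glycoproteins.

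The libraries held between 12.37 and 26.64 M counts. Levels are given as CPM, the count of a gene divided by the library's total in M counts, with totals scaled by TMM over all 20 libraries. The sort genes matched the labels in part. Ly6g was at 0 to 0.404 CPM in the 10 mMDSC libraries. In gMDSC it was at 0.438 to 9.20 CPM with vehicle, where vehicle gMDSC 5 was the lowest. With CBPi it was at 0.529 to 2.14 CPM in gMDSC, and the means were 5.21 and 0.973 CPM. The neutrophil chemokine receptor Cxcr2 was at 659 to 1867 CPM in gMDSC and at 0.233 to 3.41 CPM in mMDSC. Its means in gMDSC were 1428 CPM with vehicle and 816 CPM with CBPi. Adgre1, the gene of F4/80, was at 438 to 1520 CPM over the 4 groups although both gates excluded the protein, and the macrophage gene Apoe was at 9453 to 55700.3 CPM. In bulk samples such as these, fewer cells of a type and less RNA per cell cannot be told apart.

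Per kilobase of coding length, the scale on which genes can be compared, Tgfbi had the highest mean level of the 8 in vehicle mMDSC (1742 CPM per kb) and Vcan the lowest (8.00 CPM per kb). Lgals3 followed Tgfbi at 1465 CPM per kb, and their ranges over libraries overlapped. Spp1, Fgl2 and Ecm1 lay at 473, 375 and 311 CPM per kb, and Fn1 and Thbs1 at 76.0 and 63.2 CPM per kb. In vehicle gMDSC the order was another: Spp1 led at 1023 CPM per kb, ahead of Fgl2 at 992, Lgals3 at 852 and Tgfbi at 838 CPM per kb, all with overlapping ranges. Ecm1, Thbs1, Fn1 and Vcan followed at 41.3, 11.2, 3.78 and 0.141 CPM per kb. With CBPi, Thbs1 stood at 243 CPM per kb in gMDSC and at 103 CPM per kb in mMDSC.

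**Figure D1:**
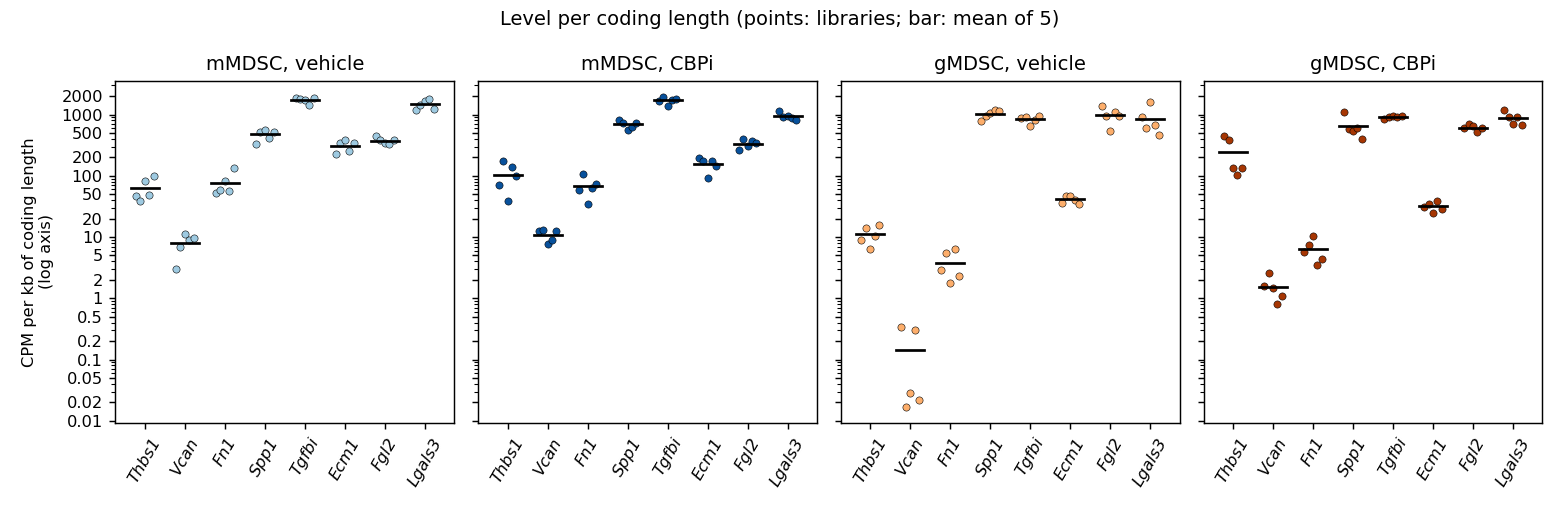
Level of the 8 genes in CPM per kb of coding length (log axis), 1 panel per group, with a point per library and a bar at the mean of 5. Tgfbi and Lgals3 are the highest in vehicle mMDSC (means of 1742 and 1465), Spp1 in vehicle gMDSC (1023), and Vcan is the lowest in every group.

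Without the inhibitor, the populations were compared to see which carried these transcripts. Thbs1 and Vcan had been chosen on contrasts that hold the vehicle gMDSC libraries, so they are described without p and left out of the counts. Of the other 6 genes, 3 were lower in gMDSC (8.08% of all genes tested were), 2 were higher (13.6% of all) and 1 did not pass, against 21.7% of all genes called in either direction. Tests are edgeR's quasi-likelihood test with the Benjamini-Hochberg adjusted p under 0.05 over all genes tested. The groups did not overlap for 5 of the 6, 2 higher (11.3% of all genes) and 3 lower (8.89% of all), against 20.2% of all genes in either direction. The median log2 fold change of the 6 was -0.90 beside -0.06 for all genes.

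Fn1 and Vcan were far higher in the vehicle mMDSC libraries than in vehicle gMDSC. Fn1 (GeneID 14268, GRCm38 chromosome 1, 71585473 to 71653280) was at 383, 434, 611, 412 and 986 CPM in vehicle mMDSC 1 to 5. In vehicle gMDSC 1 to 5 it was at 21.3, 40.8, 13.4, 48.1 and 16.9 CPM. Every mMDSC library lay above every gMDSC library, and the log2 fold change was -4.31 ± 0.42 (SE, adjusted p = 1.1e-05 by edgeR). Vcan (GeneID 13003, chromosome 13, 89655309 to 89743027) was at 31.0, 69.4, 116, 91.5 and 98.9 CPM in vehicle mMDSC. In vehicle gMDSC it was close to absent, at 34, 2, 3, 35 and 5 counts, which is 3.40, 0.169, 0.286, 3.09 and 0.219 CPM. The gMDSC libraries thus fell into a pair near 3 CPM and 3 libraries below 0.3 CPM, all below the mMDSC range. The log2 fold change was -5.90 ± 0.76 (SE), and -6.50 without vehicle gMDSC 1.

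Of the matricellular genes, Thbs1, Tgfbi and Ecm1 were lower in vehicle gMDSC and Spp1 was higher. Thbs1 (GeneID 21825, chromosome 2, 118111876 to 118127133) was at 166, 136, 292, 174 and 343 CPM in vehicle mMDSC. In vehicle gMDSC it was at 31.3, 50.3, 22.7, 36.1 and 56.0 CPM, a log2 fold change of -2.47 ± 0.32 (SE), with no overlap. Within vehicle mMDSC, libraries 3 and 5 had the highest Thbs1 and also the highest Fn1. They also had the highest summed stromal markers of that group (255 and 314 CPM, the others at most 169 CPM). Summed endothelial markers were highest in library 5 (276 CPM) and at 161 CPM in library 3, within the range of the others. The part of these markers in the Thbs1 and Fn1 values was not tested. Tgfbi (GeneID 21810, chromosome 13, 56609586 to 56639359) varied little within groups. It was at 3835, 3704, 3537, 2956 and 3836 CPM in vehicle mMDSC against 1787, 1879.8, 1349.8, 1667 and 1918 CPM in vehicle gMDSC. The groups did not overlap, and the log2 fold change was -1.03 ± 0.14 (SE, adjusted p = 0.000144 by edgeR).

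Ecm1 (GeneID 13601, chromosome 3, 95734147 to 95739876), whose protein binds perlecan and other matrix components, had the smallest adjusted p of the 6 genes for which one is given. It was at 398, 597, 672, 447 and 586 CPM in vehicle mMDSC and at 63.2, 81.0, 82.5, 71.0 and 59.9 CPM in vehicle gMDSC. The groups lay far apart, with a log2 fold change of -2.90 ± 0.18 (SE, adjusted p = 3.35e-07 by edgeR). Spp1 (GeneID 20750, chromosome 5, 104435111 to 104441053) went the other way. It was at 314, 486, 529.5, 394 and 489 CPM in vehicle mMDSC and at 734, 884, 1005, 1092 and 1075 CPM in vehicle gMDSC. The lowest gMDSC library was above the highest mMDSC library (1.13 ± 0.17 in log2, adjusted p = 0.000438 by edgeR).

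Fgl2 and Lgals3 differed from each other. Fgl2 (GeneID 14190, chromosome 5, 21372673 to 21378386) was at 582, 495, 447, 422 and 490.0 CPM in vehicle mMDSC. In vehicle gMDSC it was at 1824, 1248, 699.95, 1443 and 1229.9 CPM, higher by 1.42 ± 0.21 in log2 (SE, adjusted p = 0.000348 by edgeR). The groups did not overlap, and vehicle gMDSC 3 was the lowest gMDSC library. Fgl2 lies inside Ccdc146 in the annotation, and reads of the overlapping genes could not be separated here by strand. Ccdc146 itself was at 0.271 to 29.4 CPM, and Fgl2 was at least 33.7 times as high in each library. Like Spp1 and Fgl2, summed macrophage markers were higher in vehicle gMDSC (35140 to 79072 CPM) than in vehicle mMDSC (23637 to 33843 CPM). Of 11 macrophage markers tested, 5 were higher in gMDSC (13.6% of all genes) and 2 lower (8.08% of all). Vehicle gMDSC 3, the lowest for Fgl2, had the highest macrophage sum. The part of macrophages in the Spp1 and Fgl2 values was not tested.

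Lgals3 (GeneID 16854, chromosome 14, 47373860 to 47386167) was at 948, 1127, 1316, 1441 and 991 CPM in vehicle mMDSC. In vehicle gMDSC it was at 727, 479.8, 1272, 532 and 374 CPM. The groups overlapped through vehicle gMDSC 3 alone, and the log2 fold change was -0.78 ± 0.29 (SE, adjusted p = 0.0747 by edgeR), short of the threshold. It passed with DESeq2 (adjusted p = 0.0461), limma-voom (0.0285) and all 20 libraries in 1 edgeR fit (0.0225). Without vehicle gMDSC 3 it was -1.13 (adjusted p = 0.00135 by edgeR). That library also had the highest summed level of neutrophil markers (52430.0 CPM) and of macrophage markers (79072 CPM) in its group; the part of these in the Lgals3 value was not tested.

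**Figure D2:**
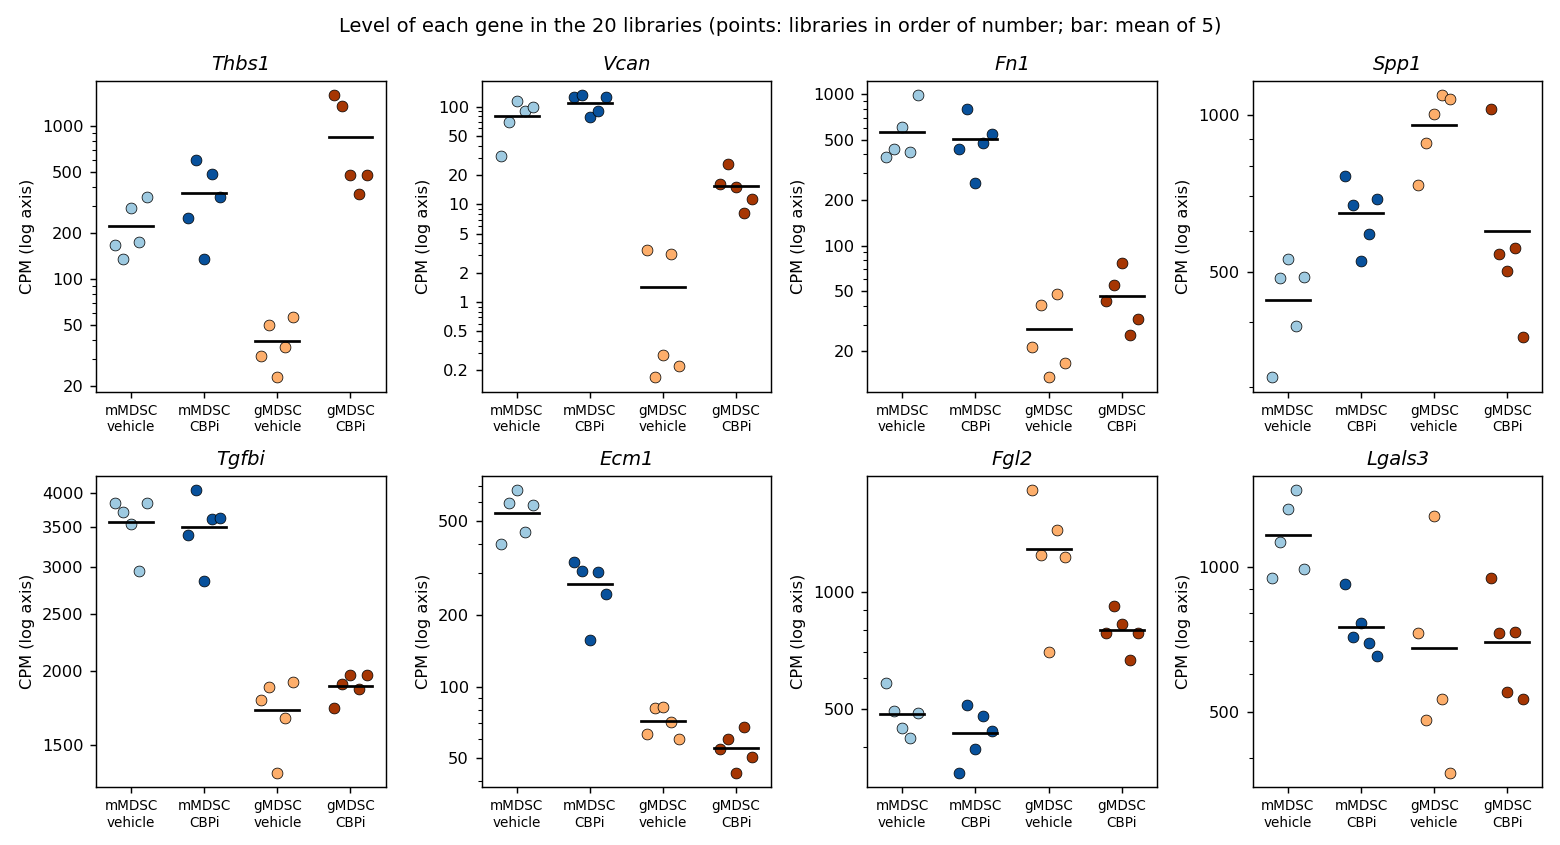
CPM of each gene (log axis) in the 4 groups, with a point per library in order of its number and a bar at the mean of 5. Fn1, Vcan, Tgfbi and Ecm1 stay lower in gMDSC than in mMDSC, while Thbs1 in CBPi gMDSC (359 to 1598) lies above vehicle gMDSC (22.7 to 56.0).

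CBPi was compared with vehicle in mMDSC. Thbs1 and Vcan were noted for gMDSC and not for this contrast, but the 8 genes were chosen with earlier results of these data known. Of the 8 genes, 2 fell (5.54% of all genes tested did), 1 rose (3.02% of all) and 5 did not pass, against 8.56% of all genes called in either direction. The median log2 fold change was -0.10 for the 8 and 0.01 for all genes, and 2 of the 8 genes separated the groups, both lower (5.57% of all genes lower, 4.20% higher and 9.76% in either direction).

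Ecm1 and Lgals3 were the genes that fell. Ecm1 was at 337, 307, 158, 306 and 246 CPM in CBPi mMDSC 6 to 10, all below the vehicle libraries, whose lowest was at 398 CPM. Mean Ecm1 went from 540.0 ± 114 to 271 ± 71.1 CPM (SD, n = 5 each), a log2 fold change of -1.001 ± 0.20 (SE, adjusted p = 0.00863 by edgeR). Lgals3 was at 922, 715, 764, 694 and 654 CPM in CBPi mMDSC, again below every vehicle library, the nearest being vehicle 1 at 948 CPM. Its log2 fold change was -0.64 ± 0.14 (SE, adjusted p = 0.0101 by edgeR). With all 20 libraries in 1 fit, which shares the spread with gMDSC, Lgals3 missed the threshold (adjusted p = 0.171 by edgeR) and Ecm1 stayed past it.

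Spp1 rose from 442 ± 87.4 to 649 ± 92.9 CPM (SD, n = 5 each). In CBPi mMDSC 6 to 10 it was at 766, 673, 525, 591 and 689.6 CPM, and CBPi 8 lay just below the highest vehicle library. The log2 fold change was 0.55 ± 0.15 (SE, adjusted p = 0.0406 by edgeR). The call ended when any library other than vehicle 3 or CBPi 8 was left out (adjusted p up to 0.094) and with all 20 libraries in 1 fit (adjusted p = 0.154 by edgeR).

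The other 5 genes did not pass in mMDSC. Thbs1 was at 249, 602, 135, 487 and 343 CPM with CBPi, a range that took in all 5 vehicle values (0.70 ± 0.37 in log2, SE, adjusted p = 0.289 by edgeR). Vcan was at 127, 132, 77.9, 89.9 and 127 CPM (0.44 ± 0.29, adjusted p = 0.406). Fn1 was at 433, 798, 261, 477 and 549.5 CPM (-0.17 ± 0.31, adjusted p = 0.801). CBPi 7 was the highest of its group for Thbs1, Vcan, Fn1, Tgfbi and Fgl2, and CBPi 8 the lowest for Thbs1, Vcan, Fn1, Spp1, Tgfbi and Ecm1. Tgfbi was at 3394, 4035, 2837, 3608 and 3620.4 CPM (-0.04 ± 0.11, adjusted p = 0.886). Fgl2 was at 344, 514, 396, 481 and 440.3 CPM (-0.17 ± 0.13, adjusted p = 0.486). For each of these 5 genes the groups overlapped.

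The 250 bases before a start site are shown for Ecm1, which fell in mMDSC in all settings tried, and for Vcan, whose counts were near 0 in vehicle gMDSC. Matches of short promoter motifs are in capitals. The sequences are from RefSeq on GRCm38.p6, where 6 of the 8 genes had an entry, written 5′ to 3′ on the strand of the gene. Both windows lie within the full span of their gene, upstream of an internal start site, and neither reached into an annotated exon. Motifs were searched on both strands: the AP-1 motif TGANTCA, the cyclic AMP element TGACGTCA, the CArG box of serum response factor, the GC box GGGCGG and the TATA box TATAAA.
Ecm1 (chr3:95739570-95739819, minus strand): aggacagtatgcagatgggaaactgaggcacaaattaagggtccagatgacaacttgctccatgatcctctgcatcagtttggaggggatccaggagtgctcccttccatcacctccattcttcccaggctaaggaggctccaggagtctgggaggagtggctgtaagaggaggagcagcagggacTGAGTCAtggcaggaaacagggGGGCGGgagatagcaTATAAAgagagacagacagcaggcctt
Vcan (chr13:89742513-89742762, minus strand): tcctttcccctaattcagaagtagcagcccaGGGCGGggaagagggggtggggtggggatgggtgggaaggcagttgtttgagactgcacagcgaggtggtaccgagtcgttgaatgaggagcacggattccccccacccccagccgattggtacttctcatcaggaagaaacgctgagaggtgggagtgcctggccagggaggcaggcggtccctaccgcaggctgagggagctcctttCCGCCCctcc
The Ecm1 window held an AP-1 match, a GC box and a TATA box, none overlapping another, with the first bases 64, 42 and 27 before the start site. Vcan held 2 GC boxes, 1 on each strand, 219 and 10 bases before the start site. Of 32851 windows of this length, 6.75% held the AP-1 motif, 32.7% the GC box and 12.4% the TATA box. The cyclic AMP element was in 1.55% and the CArG box in 1.47% of all windows, and neither was in these 2. Fgl2 also held an AP-1 match, and Fgl2 did not pass the test in mMDSC. These are matches of letters only.

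In gMDSC, CBPi was compared with vehicle as a description, since Thbs1 and Vcan were chosen from it. Both were higher with CBPi and were the only ones of the 8 past the threshold (4.18% of all genes were higher, 5.52% lower and 9.71% either). Both separated the groups, as did 4.94% of all genes in that direction, 7.23% in the other and 12.2% in either. As the choice rested on this contrast, nothing is read from these counts.

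Thbs1 was at 1598, 1365, 477, 359 and 478 CPM in CBPi gMDSC 6 to 10, against at most 56.0 CPM with vehicle. The CBPi libraries fell into a pair, 6 and 7, and 3 libraries at most at 478 CPM, and the lowest CBPi library was 6.40 times the highest vehicle library. The means were 39.3 ± 13.7 and 855 ± 579 CPM (SD, n = 5 each), a log2 fold change of 4.47 ± 0.47 (SE). Without CBPi 6 and 7 it was 3.52. The same pair had the lowest summed monocyte markers of its group (5026 and 5448 CPM, the others at least 6796 CPM) and the lowest summed macrophage markers (17037 and 19356 CPM, the others at least 28151 CPM). It also had the highest summed neutrophil markers (30988 and 23596 CPM, the others at most 18191 CPM). The part of these in the Thbs1 values was not tested. With CBPi the level of Thbs1 in gMDSC thus passed from below the mMDSC range to a range that overlapped it.

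Vcan was at 16.2, 26.0, 14.95, 8.09 and 11.2 CPM in CBPi gMDSC, from 152 to 483 counts. Every one of these was above the vehicle libraries (at most 3.40 CPM) and below every mMDSC library (at least 31.0 CPM). The log2 fold change was 3.51 ± 0.78 (SE) and 4.10 without vehicle 1. It was 3.08 without CBPi 6 and 7.

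Fn1, like Vcan far lower in vehicle gMDSC than in vehicle mMDSC, was at 42.9, 54.7, 77.2, 25.6 and 32.7 CPM in CBPi gMDSC. It overlapped the vehicle gMDSC libraries (0.77 ± 0.39 in log2, SE). Spp1 was at 1027, 541, 501, 556 and 376 CPM. In CBPi 6 it was as high as with vehicle, and in the other 4 CBPi libraries below every vehicle library. Its log2 fold change was -0.64 ± 0.24 (SE), and -0.92 without CBPi 6. Tgfbi was nearly level at 1737, 1905, 1973, 1865 and 1969 CPM (0.17 ± 0.15). Ecm1 was at 54.6, 60.1, 43.4, 67.7 and 50.6 CPM (-0.34 ± 0.17), at levels overlapping those of vehicle. Fgl2 was at 786, 918, 829.8, 668 and 784 CPM, all below vehicle 1, 2, 4 and 5, while vehicle 3 at 699.95 CPM lay within their range (-0.65 ± 0.21, and -0.81 without vehicle 3). Lgals3 was at 949, 729, 548, 731 and 532 CPM, within the range of vehicle (0.09 ± 0.29).

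**Figure D3:**
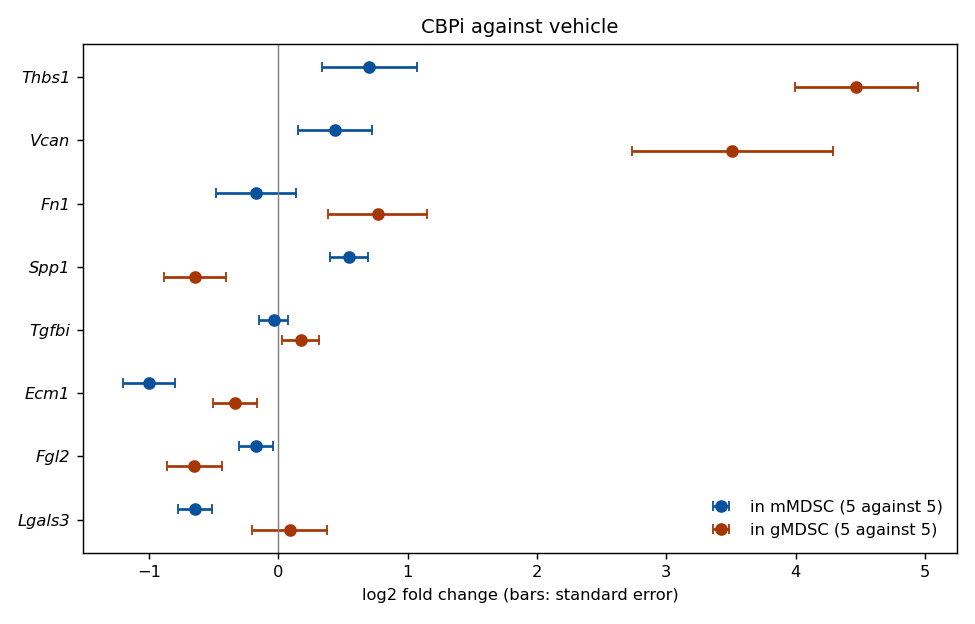
Log2 fold change with CBPi against vehicle (bars: standard error) for the 8 genes, in mMDSC and in gMDSC, 5 libraries against 5. Thbs1 (4.47) and Vcan (3.51) lie far to the right in gMDSC, while Ecm1 (-1.001) and Lgals3 (-0.64) lie to the left in mMDSC.

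Whether the response differed between the populations was tested as an interaction over all 20 libraries, gMDSC minus mMDSC; 0.725% of all genes passed, 0.497% with a higher and 0.229% with a lower response in gMDSC. Of the 6 genes other than Thbs1 and Vcan, edgeR called 0, with 2 at an unadjusted p under 0.05, and DESeq2 and limma-voom each called 1, Spp1. Spp1, higher with CBPi in mMDSC and at -0.64 in gMDSC, had a difference of -1.23 ± 0.30 in log2 (SE, adjusted p = 0.0547 by edgeR), which just missed the threshold. It passed without CBPi gMDSC 6 (-1.51, adjusted p = 0.00375 by edgeR), and its adjusted p over the other settings ran from 0.00949 to 0.122. The differences of Fn1 (0.90 ± 0.52, adjusted p = 0.54), Lgals3 (0.68 ± 0.35, adjusted p = 0.474), Ecm1 (0.62 ± 0.26, adjusted p = 0.356), Fgl2 (-0.53 ± 0.26, adjusted p = 0.438) and Tgfbi (0.17 ± 0.17, adjusted p = 0.77) did not pass. The falls of Ecm1 and Lgals3 in mMDSC were therefore not shown to differ from their responses in gMDSC. Thbs1 and Vcan, given without p since the interaction contains the contrast that chose them, stood at 3.73 ± 0.61 and 3.07 ± 0.74, and Thbs1 at 2.77 without CBPi gMDSC 6 and 7.

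Under CBPi, gMDSC and mMDSC were compared as well; these comparisons share their libraries with those above. Of the 6 genes other than Thbs1 and Vcan, 3 were lower in gMDSC (19.1% of all genes tested) and 1 higher (20.1% of all; 39.2% either). The groups were separate for 4 of the 6, 3 lower (15.6% of all) and 1 higher (14.4% of all; 29.9% either). Fn1 (-3.38 ± 0.34, adjusted p = 5.67e-06 by edgeR), Ecm1 (-2.24 ± 0.20, adjusted p = 2.1e-06) and Tgfbi (-0.83 ± 0.12, adjusted p = 9.39e-05) remained lower in gMDSC, without overlap. Fgl2 remained higher (0.93 ± 0.14, adjusted p = 0.000149 by edgeR). Spp1 was at -0.06 ± 0.22 (adjusted p = 0.853) and Lgals3 at -0.05 ± 0.16 (adjusted p = 0.833), both with overlapping groups. Vcan was at -2.80 ± 0.28. Thbs1 was at 1.28 ± 0.46, with overlapping groups, and at 0.32 without CBPi gMDSC 6 and 7. Leaving out single libraries gave 0.94 to 1.55.

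**Figure D4:**
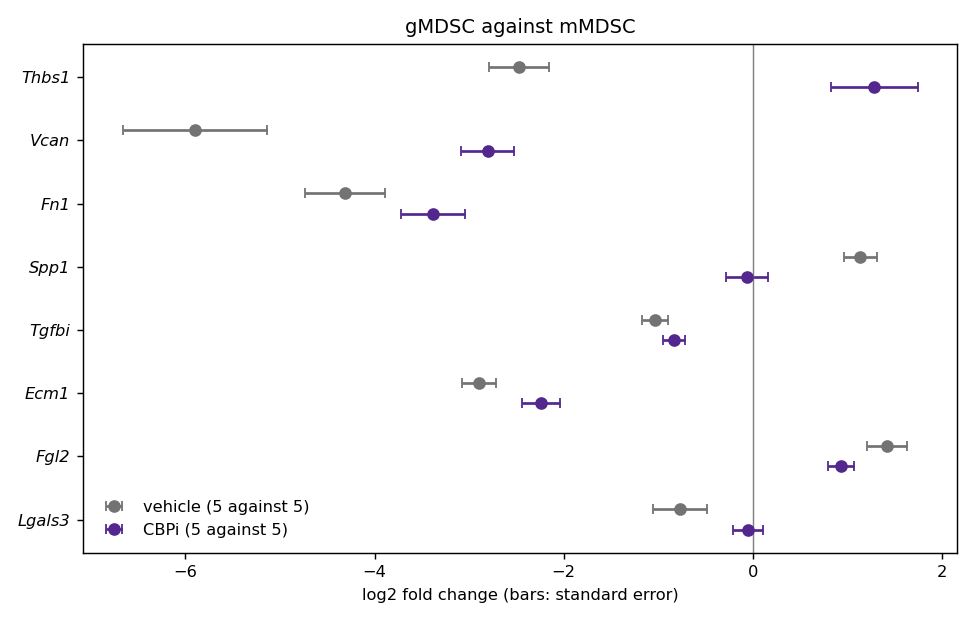
Log2 fold change of gMDSC against mMDSC (bars: standard error) for the 8 genes, with vehicle and with CBPi, 5 libraries against 5. Vcan moves from -5.90 to -2.80 and Thbs1 from -2.47 to 1.28, and Spp1 from 1.13 to -0.06.

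Across the 4 groups, the order of Thbs1 was CBPi gMDSC, CBPi mMDSC, vehicle mMDSC and vehicle gMDSC; only the last step was free of overlap. Ecm1 followed the order vehicle mMDSC, CBPi mMDSC, vehicle gMDSC and CBPi gMDSC, with overlap at the last step only. Fn1 and Tgfbi followed vehicle mMDSC, CBPi mMDSC, CBPi gMDSC and vehicle gMDSC, with the only gap between the cell types. For Fgl2, gMDSC stood above mMDSC with the only gap between them, and for Spp1 (vehicle gMDSC, CBPi mMDSC, CBPi gMDSC, vehicle mMDSC) all neighbours overlapped. Vcan was highest in CBPi mMDSC, then vehicle mMDSC, CBPi gMDSC and vehicle gMDSC, with overlap at the first step only. Lgals3 followed vehicle mMDSC, CBPi mMDSC, CBPi gMDSC and vehicle gMDSC. Only the first step was free of overlap, and single libraries of both gMDSC groups reached into the range of vehicle mMDSC. Spread within a group was smallest for Tgfbi (coefficient of variation 5.10% to 13.3%) and largest for Vcan in vehicle gMDSC (116%), where counts were lowest.

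Over the 20 libraries, the genes whose log2 CPM was most like Thbs1 were the MAP kinase phosphatase gene Dusp8 (Pearson r = 0.929), the polo-like kinase gene Plk2 (0.924) and the phosphofructokinase gene Pfkp (0.894). For Vcan they were the metalloproteinase inhibitor gene Timp1 (0.949), Stx3 (0.941) and Ifi209 (0.936). Fn1 was most like Plcb1 (0.972), Tgfbi (0.96) and Ifi211 (0.948), and Tgfbi most like Cnp (0.972), Ifi44 (0.964) and Fn1. Ecm1 was most like Ms4a4a (0.958), Anxa4 (0.953) and the monocyte gene Ly6c2 (0.953), and Fgl2 most like Atp6v0a1 (0.943), Jak2 (0.941) and Slc35a5 (0.941). Lgals3 was most like the coagulation factor gene F10 (0.900), Eif4e (0.857) and Sap30 (0.856). Spp1 had the weakest matches, Fam167a (0.819), Reck (0.813) and Cmah (0.799). The 20 libraries share the 4 groups, so these values describe the group pattern in the main.

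Among 22 genes for receptors of these proteins, all tested, 3 fell with CBPi in mMDSC by edgeR (5.54% of all genes tested did). By edgeR 0 rose (3.02% of all), with 2 higher at an unadjusted p under 0.05. DESeq2 called 2 higher and limma-voom 0. Those that fell were the adhesion ligand gene Selplg (-0.71), the scavenger receptor gene Stab1 (-1.04) and Tlr2 (-0.50), whose product binds versican. In gMDSC 2 rose (4.18% of all), Itgb7 (1.56) and Sdc4 (0.87, with an adjusted p of 0.0516 under limma-voom). There 3 fell (5.52% of all), among them Cd36 (-1.17, adjusted p = 0.0208 by edgeR), a thrombospondin receptor. The difference between populations passed for Cd36 (-1.80, adjusted p = 0.0175 by edgeR) and Itgb7 (1.75, adjusted p = 0.00339). In vehicle, the osteopontin and hyaluronan receptor gene Cd44 was higher in gMDSC (2.10 ± 0.18, adjusted p = 2.79e-06 by edgeR), and Lrp1, a thrombospondin receptor, lower (-1.46 ± 0.23, adjusted p = 0.000462). In all, 4 of the 22 were higher (13.6% of all genes tested were) and 6 lower (8.08% of all) there.

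Of 24 genes of the TGF-beta pathway, 21 were tested in mMDSC. With CBPi 1 rose (3.02% of all genes tested did) and 4 fell (5.54% of all). The receptor gene Tgfbr1 (-1.09), the inhibitory Smad6 (-1.93) and the feedback gene Pmepa1 (-1.09) fell, and Tgfb3 rose (1.26) at a low level of 3.12 to 7.48 CPM in the means. In gMDSC 2 of 22 fell (5.52% of all genes tested did), among them Pmepa1 (-1.39), and 0 rose by edgeR (4.18% of all). There 3 were higher at an unadjusted p under 0.05, with 1 called higher by DESeq2 and 1 by limma-voom. Of 29 genes for matrix assembly, crosslinking and hyaluronan, 23 were tested in each population. In mMDSC edgeR called 0 of them with CBPi (8.56% of all genes were called), with 5 higher and 1 lower at an unadjusted p under 0.05. DESeq2 called 1 higher and limma-voom 0. In gMDSC 6 rose (4.18% of all genes tested did) and 1 fell (5.52% of all) by edgeR. The list was chosen with earlier results of these data known, so its counts and adjusted p-values are a description and not independent evidence. The risers included the collagen prolyl hydroxylase gene P4ha1 (from 118 to 496 CPM, 2.10 ± 0.25 in log2, adjusted p = 0.000276 by edgeR), the transglutaminase genes F13a1 (3.36 ± 0.52, adjusted p = 0.00203) and Tgm2 (1.51 ± 0.25, adjusted p = 0.00277). The difference between populations passed for P4ha1 (1.69, adjusted p = 0.00339) and F13a1 (3.19, adjusted p = 0.00767) by edgeR, and the F13a1 call was lost under limma-voom (adjusted p = 0.103). The lists' median log2 fold change in gMDSC was 0.33 for matrix assembly and 0.00 for all genes.

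Of 50 other secreted matrix genes, 44 were tested in mMDSC, where Mfge8 rose (1.04) and Lgals3bp (-0.28) and Emilin1 (-0.87, with an adjusted p of 0.0509 under limma-voom) fell with CBPi by edgeR. In gMDSC 41 were tested and the heparan sulfate proteoglycan gene Agrn rose (1.02). With CBPi, 3.02% of all genes tested rose and 5.54% fell in mMDSC, and 4.18% rose and 5.52% fell in gMDSC. In vehicle, 4 of 41 were higher in gMDSC (13.6% of all genes tested were), among them the serglycin gene Srgn (5179 against 856 CPM in the means). There 2 were lower (8.08% of all), Lgals3bp and the galectin-1 gene Lgals1.

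Markers of other cells were set beside these results. Thrombospondin 1 is stored in platelet granules, and the 11 platelet markers summed to 29.8 to 87.0 CPM in vehicle gMDSC and 50.3 to 68.0 CPM in CBPi gMDSC, ranges that overlapped. The part of platelets in the Thbs1 values was not tested. Pf4 made up most of both sums, and Gp6 was at 0 in both groups. In gMDSC 0 of the 5 platelet markers tested passed by edgeR (9.71% of all genes did). Another 0 were reached at an unadjusted p under 0.05, and 0 by DESeq2 or limma-voom. In mMDSC the sum went from 25.4 to 53.4 CPM with vehicle to 83.2 to 266 CPM with CBPi, through Pf4 (1.84, adjusted p = 0.00261 by edgeR). The 11 stromal markers summed to 169 to 564 CPM in vehicle gMDSC and 96.1 to 376 CPM in CBPi gMDSC. Each was above 0 in at least 1 library of both groups. In mMDSC they summed to 69.7 to 314 CPM with vehicle and 58.0 to 259 CPM with CBPi. Fn1 and the stromal sum ranked the libraries alike in CBPi gMDSC and not in the other groups. The part of stromal cells in the Fn1 values was not tested. The 9 endothelial markers summed to 105 to 276 CPM in vehicle mMDSC and 28.8 to 99.9 CPM in vehicle gMDSC, without overlap. With CBPi they summed to 71.9 to 151 CPM in mMDSC and 61.8 to 88.5 CPM in gMDSC. The 9 dendritic cell markers summed to 40.4 to 75.7 CPM in vehicle mMDSC and 23.2 to 36.7 CPM in vehicle gMDSC. With CBPi they summed to 50.3 to 94.0 CPM in mMDSC and 21.1 to 41.3 CPM in gMDSC. The part of these cells in the results was not tested.

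The 10 monocyte markers summed to 9907 to 11406 CPM in vehicle gMDSC and 5026 to 7316 CPM in CBPi gMDSC, lower in every library. The 12 macrophage markers went from 35140.3 to 79072 CPM with vehicle to 17037 to 32719 CPM with CBPi in gMDSC, also without overlap. Apoe was the largest part of this sum, at means of 32952 and 14485 CPM. Of 11 tested, 3 fell by edgeR (5.52% of all genes did), Apoe (-1.15), Ms4a7 (-1.12) and Trem2 (-1.09). By edgeR 0 rose (4.18% of all), with 1 higher at an unadjusted p under 0.05. Mean Mertk in gMDSC was 23.3 CPM with vehicle and 43.2 CPM with CBPi. The 7 epithelial markers went from 24.2 to 59.97 CPM to 6.78 to 12.8 CPM there, with Krt18 (-4.44) and Krt8 (-2.24) falling by edgeR, the latter not by limma-voom (adjusted p = 0.172). Among stromal markers Acta2 fell in gMDSC (-2.31, adjusted p = 0.00333 by edgeR). Within the monocyte list F13a1 was higher with CBPi, at 12.7 to 52.9 against 0.763 to 4.42 CPM, and Ly6c2 lower, at 12.7 to 19.9 against 20.5 to 68.7 CPM. In mMDSC, where Ecm1 and Lgals3 fell, the monocyte sum went from 13887 to 18587 CPM with vehicle to 11060.0 to 11999 CPM with CBPi. The macrophage sum went from 23637 to 33843 CPM to 19869 to 24852 CPM. The largest parts were Ctss (means of 7780 and 5243 CPM) and Apoe (18338 and 14612 CPM). By edgeR 4 of 10 monocyte and 5 of 11 macrophage markers fell (5.54% of all genes did). Mrc1 rose (0.72, adjusted p = 0.0212 by edgeR), and the means of Klf4 (74.6 to 119 CPM) and Mertk (51.8 to 73.7 CPM) were higher with CBPi. Each monocyte and macrophage marker was above 0 in at least 1 library of every group. Of 5 gate genes tested in mMDSC, 4 fell with CBPi by edgeR (5.54% of all genes did), among them Ly6c2 (-1.24), Ly6c1 (-1.27) and Ptprc (-0.54). In gMDSC 2 of 6 gate genes fell by edgeR (5.52% of all genes did), Ly6c2 (-1.41) and Ly6c1 (-1.37), with 1 called by limma-voom and 3 by DESeq2. Of 12 neutrophil markers tested there, edgeR called 1 (9.71% of all genes were called), Cxcr2, which fell (-0.76, adjusted p = 0.0314). The part of these markers in the results was not tested.

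**Figure D5:**
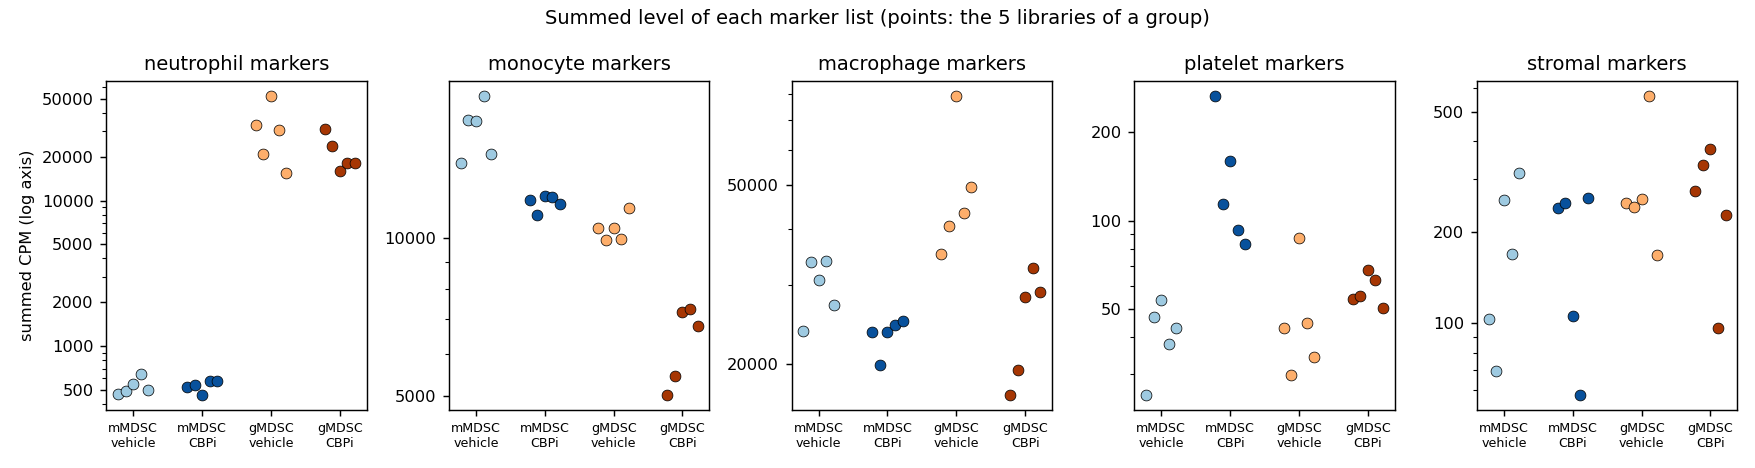
Summed CPM of 5 marker lists (log axes) in the 4 groups, with a point per library. The platelet sums of vehicle and CBPi gMDSC overlap (29.8 to 87.0 and 50.3 to 68.0), while the monocyte sums are lower with CBPi in both populations.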

How the data were processed

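Per the labels' protocols, libraries were made from poly-A RNA with the TruSeq V2 kit. Per the submitters' processing notes, reads were aligned with GSNAP to GRCm38; its version, the counter, the annotation and any strand setting: not given in the sources used here. The authors deposited, per gene, a raw count, a width and an RPKM value. RPKM, computed by the authors, was used only to see that counts were 50.25% to 62.44% of the total behind it. Widths were multiples of 3 in 79.97% of genes and in all 8 members, and are called coding length.

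Of 23090 IDs, 21647 had a symbol in RefSeq's GRCm38.p6 table, which gave coordinates. The test on the counts was that of edgeR 4.0.16 under R 4.3.3 (filterByExpr with minimum count 10 and minimum total 15, TMM, glmQLFit, glmQLFTest, Benjamini-Hochberg) on the libraries of each of 5 comparisons, with the SE taken as the log2 fold change over the square root of F. All 8 members passed the filter in every comparison. Alternatives used DESeq2 1.42.0, its size factors in edgeR, no filter, limma-voom (limma 3.58.1), all 20 libraries in 1 fit, a replicate block, and each library left out. Code was tested on simulated data. Every pair of libraries within a group differed by more than sampling noise, with chi-square over its degrees of freedom no lower than 20.7.

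The members and lists were chosen with earlier results of these data known. Named were all members, the 3 genes most like each (Pearson r of log2 CPM, prior count 2, over 20 libraries), and up to 3 genes per direction and list with the smallest p. The 4 gene lists were receptors, TGF-beta pathway, matrix assembly and other matrix genes; 9 marker lists covered neutrophils, monocytes, macrophages, dendritic cells, platelets, stroma, endothelium, epithelium and the gates.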

Additional observations from a re-analysis of the deposited data

Results flagged for a closer look

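Spp1 in CBPi gMDSC 6 stood far from the other 4 libraries of its group, at 1027 CPM against 556 CPM in the nearest. Of 32 sets of 5 libraries (8 genes in 4 groups), 1 had such a gap, no more than the about 1 in 20 that chance gives. The same library had the highest Thbs1 of all 20.

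The response of Thbs1 to CBPi differed between the populations by 3.73 in log2, gMDSC minus mMDSC. Thbs1 had been chosen for the gMDSC part of this difference, so the value is a description.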

How the results depend on the processing

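Of 720 values of the 8 genes under alternatives, 669 kept their direction and their side of the threshold, 17 lost a call, 21 gained one and 13 changed sign. Those that changed sign had small differences, and the cause was not tested. Without vehicle mMDSC 5 the mMDSC response of Fn1 was 0.13 (range over single libraries left out -0.41 to 0.13), and without CBPi mMDSC 8 that of Tgfbi was 0.033 (-0.10 to 0.033). The gMDSC response of Lgals3 ranged from -0.060 to 0.43 and was -0.12 without CBPi gMDSC 6 and 7, an alternative chosen after seeing the data. Under CBPi, the difference between populations ranged from -0.34 to 0.063 for Spp1 and from -0.18 to 0.031 for Lgals3.

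Counts of genes past the threshold moved more. In mMDSC the 1020 genes became 1647 with DESeq2 and 639 with all 20 libraries in 1 fit, where 1 rather than 3 of the 8 genes passed; leaving out single libraries gave 694 to 1143 genes and 2 to 3 of the 8. In gMDSC the 1135 genes became 1926 with DESeq2, 2182 with all 20 libraries in 1 fit (Spp1 and Fgl2 added) and 306 without CBPi gMDSC 6 and 7. Single libraries left out gave 587 (CBPi gMDSC 7), 708 (CBPi gMDSC 6) and up to 1394 genes. The interaction's 92 genes became 277 with DESeq2 and 36 without CBPi gMDSC 6 and 7. Leaving out single libraries gave 34 to 111 genes, with under 60 genes without vehicle mMDSC 5 (58), CBPi mMDSC 10 (53), vehicle gMDSC 4 (47) or CBPi gMDSC 6 (57) or 7 (34). The interaction contains the contrast that chose Thbs1 and Vcan, so these 2 are left out here. Of the other 6 genes, only Spp1 passed the interaction with DESeq2, with limma-voom and without CBPi gMDSC 6 and 7.

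Same-numbered mMDSC and gMDSC libraries deviated together weakly or not at all (correlation -0.0308 to 0.168 over 10 pairs, 2 of them over 0.1). Of the 10, 4 were best with their own number. The labels do not give the mice, and so few pairs cannot settle whether the numbers mark pairs. In the main fits they were not taken as pairs. With the replicate block, the interaction had 52 genes, with Spp1 added (adjusted p = 0.0368 by edgeR). The vehicle comparison had 2014 genes, with Lgals3 added (adjusted p = 0.0319 by edgeR). The CBPi comparison had 4581 genes, with no change of call among the 6 genes other than Thbs1 and Vcan.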
